A study of Saccharomyces cerevisiae with 21 samples.

Results

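The 10 transcripts described here encode mannoproteins of the yeast cell wall: PIR1, PIR3, HSP150, CIS3, CWP1, CWP2, SED1, TIP1, TIR1 and CCW12. They were taken by gene symbol from 2 array types, which measure 5379 and 5365 named genes, and all 10 were found on both, each with 1 probe. Saccharomyces cerevisiae strain S288C, the reference laboratory strain of budding yeast, was irradiated cold in saline, moved to 50 ml of YPD rich medium and allowed to recover for 40 min at 25 C. Each array carried cDNA of irradiated cells, labelled with Cy5, and cDNA of cells kept cold in saline for the same time without irradiation, labelled with Cy3. The 4 irradiated groups were thermal neutrons (20.8 Gy over 20 h), carbon ions (25 Gy over 10 min, 290 MeV per nucleon), gamma rays (17 Gy over 20.5 h) and fast neutrons (20.3 Gy), with 3 arrays for each. Carbon ion cells were held in 5 ml of saline in flasks, and the irradiated cells of the other groups in 2 ml in cuvettes.

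Several entries of the labels limit these groups as models of a single radiation. In the thermal neutron field, with a global dose rate of 17 mGy/min, thermal neutrons themselves contributed 1.0 to 2.0 mGy/min. For gamma rays the stated dose rate of 1.4 Gy/min over the stated 20.5 h would give 1722 Gy and not 17 Gy. The fast neutron exposure is given as 19 h in one entry and as 336 min, with a total dose of 21.4 Gy, in another. Dose, time in saline and radiation quality differ together between the groups and cannot be told apart. For thermal and fast neutrons the labels place the control cells in flasks and the irradiated cells in cuvettes, so the vessel differs too. The labels state that samples were collected independently, without saying whether the 3 arrays of a group came from separate irradiations.

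The wall of budding yeast is a net of glucan and a little chitin, covered by an outer layer of heavily mannosylated proteins. Most of these proteins reach the wall through a glycosylphosphatidylinositol (GPI) anchor, which is cut so that the protein can be joined to 1,6-beta-glucan. The PIR proteins (proteins with internal repeats) are joined directly to 1,3-beta-glucan. Transcripts of both classes are known to follow the cell cycle, temperature, oxygen and the cell wall integrity pathway, a kinase cascade that answers wall stress. PIR1, PIR3, HSP150 and CIS3 are the 4 PIR members, and the other 6 are GPI proteins.

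Values are log2 ratios of irradiated over control, given per array and then as mean ± SD over 3 arrays (n = 3). A transcript is said to rise or fall where limma gave a Benjamini-Hochberg adjusted p under 0.05 over all genes tested. Irradiated cells always carried Cy5, so any preference of a probe for one dye adds to its ratios against control; it drops out when thermal neutrons, carbon ions and gamma rays are set against each other. Each ratio averages a whole culture, so a change in the share of cells at some stage and a change in transcript per cell cannot be told apart. Probe sequences are not used here, and signal from close relatives, such as PIR5 for the PIR genes or TIR2 to TIR4 for TIR1, cannot be separated from a member's own.

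The 10 transcripts did not move as a block. After thermal neutrons 4 rose and 2 fell, against 19.9% of all genes tested higher and 21.2% lower (41.1% called). After carbon ions 4 rose and 1 fell, against 9.70% higher and 11.9% lower (21.6% called). Gamma rays raised 3 and lowered 0, against 17.6% higher and 22.4% lower (40.0% called). After fast neutrons 2 rose and 1 fell, against 5.06% higher and 5.92% lower (11.0% called). Median log2 ratios of the 10 were 0.09 after thermal neutrons, 0.39 after carbon ions, 0.36 after gamma rays and 0.01 after fast neutrons, where all genes tested had medians of -0.04, -0.04, -0.06 and 0.00. In all, 8 of the 10 passed after at least 1 radiation, PIR3 and HSP150 after 3, while CIS3 and CCW12 passed after none. The share of all genes that passed after at least 1 radiation was not counted, so these counts are not read as particular to the members.

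**Figure D1:**
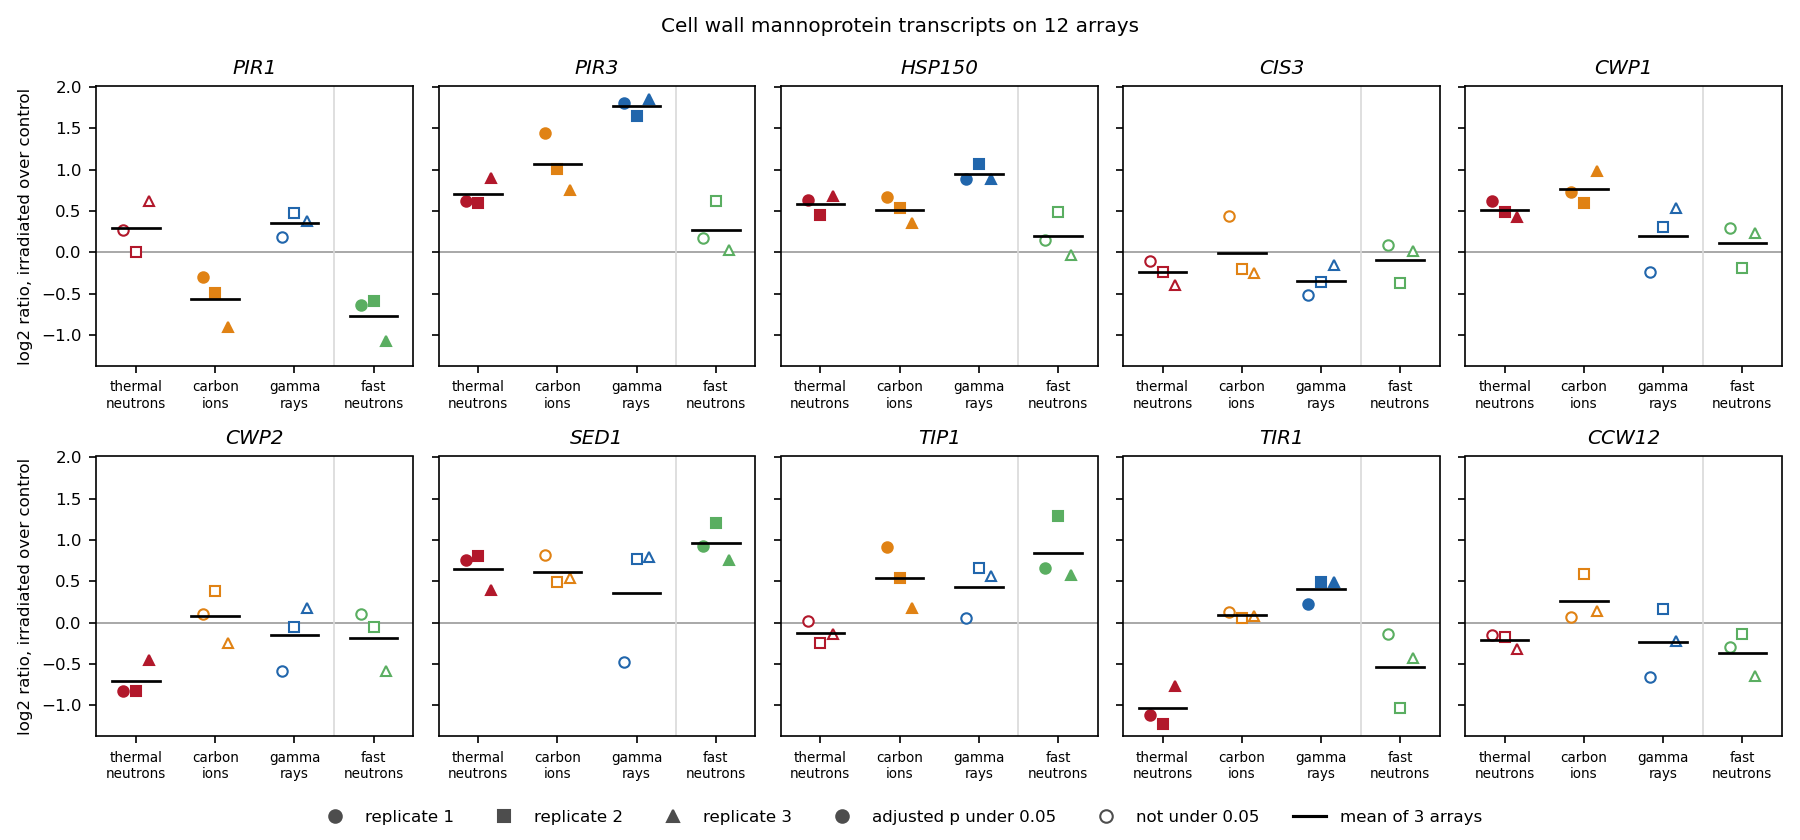
Log2 ratio of irradiated over control (vertical axis) for each of the 10 members on the 12 arrays, grouped by radiation, with replicates as circles, squares and triangles and the group mean as a bar. Filled symbols mark groups with an adjusted p under 0.05. PIR3 is highest after gamma rays, TIR1 is lowest after thermal neutrons, and fast neutrons, right of the grey line, were measured on another array type.

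PIR3 (YKL163W), an O-mannosylated protein of the PIR family, was the most raised member after thermal neutrons, carbon ions and gamma rays. Its log2 ratios were 0.62, 0.60 and 0.90 after thermal neutrons, 1.44, 1.00 and 0.75 after carbon ions, and 1.80, 1.64 and 1.86 after gamma rays. All 9 values lie above 0, and the lowest gamma ray value is above the highest of the other 6. The means were 0.71 ± 0.17 after thermal neutrons (adjusted p = 0.00229), 1.06 ± 0.35 after carbon ions (adjusted p = 7.27e-04) and 1.77 ± 0.11 after gamma rays (adjusted p = 1.08e-05). The last is a 3.40-fold rise and stood above 98.9% of genes tested after gamma rays. These rises held under every alternative tried. After fast neutrons PIR3 was at 0.18, 0.61 and 0.02, with a mean of 0.27 ± 0.31 (adjusted p = 0.306; 95% interval -0.12 to 0.67).

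HSP150 (YJL159W, also named PIR2), a secreted PIR protein whose gene is known to be induced by heat shock, moved the same way with smaller values. It read 0.63, 0.45 and 0.68 after thermal neutrons, 0.67, 0.53 and 0.35 after carbon ions, and 0.88, 1.07 and 0.89 after gamma rays. The gamma ray arrays again lie above all 6 others. Means were 0.59 ± 0.12 (adjusted p = 0.00216), 0.52 ± 0.16 (adjusted p = 0.0105) and 0.95 ± 0.11 (adjusted p = 1.42e-04) in the same order. The carbon ion rise was no longer called without carbon ion replicate 1 (adjusted p = 0.0861) or replicate 2 (adjusted p = 0.0599), or with the carbon ion arrays fitted alone (adjusted p = 0.0611). Fast neutrons gave 0.15, 0.48 and -0.04, with a mean of 0.20 ± 0.26 (adjusted p = 0.436).

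PIR1 (YKL164C), another PIR protein with internal repeats, differed in sign between radiations. It was at 0.28, 0.01 and 0.62 after thermal neutrons and at -0.30, -0.49 and -0.90 after carbon ions, and the groups do not overlap. Gamma rays gave 0.19, 0.48 and 0.38. Carbon ions lowered it (mean -0.57 ± 0.30, adjusted p = 0.0216), while thermal neutrons (0.30 ± 0.31, adjusted p = 0.131) and gamma rays (0.35 ± 0.15, adjusted p = 0.0826) did not pass. The carbon ion call was lost without carbon ion replicate 2 (adjusted p = 0.0746) or replicate 3 (adjusted p = 0.112), and with those arrays fitted alone (adjusted p = 0.0765). Fast neutrons lowered it as well, with -0.64, -0.58 and -1.07 and a mean of -0.77 ± 0.27 (adjusted p = 0.0329), which placed it at percentile 4.21 of the genes tested.

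CIS3 (YJL158C, also named PIR4), another PIR protein of the wall, passed after no radiation. Its values were -0.11, -0.24 and -0.39 after thermal neutrons, 0.43, -0.20 and -0.25 after carbon ions, -0.52, -0.36 and -0.15 after gamma rays, and 0.08, -0.37 and 0.02 after fast neutrons. All arrays of thermal neutrons and gamma rays are below 0, and those of carbon ions and fast neutrons straddle it. The 95% interval of the mean ran from -0.57 to 0.08 after thermal neutrons, from -0.33 to 0.32 after carbon ions, from -0.67 to -0.02 after gamma rays (adjusted p = 0.0837) and from -0.46 to 0.29 after fast neutrons.

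TIR1 (YER011W), a GPI protein of the Srp1/Tip1 family whose gene is known to be induced by cold and by lack of oxygen, was the most lowered member after thermal neutrons. It read -1.11, -1.22 and -0.77 after thermal neutrons, 0.13, 0.06 and 0.09 after carbon ions, and 0.22, 0.49 and 0.49 after gamma rays. The 3 groups do not overlap. Thermal neutrons left it at 0.489 of the control (mean -1.03 ± 0.24, adjusted p = 8.73e-05), at percentile 2.06 of the genes tested, and this call held under every alternative. Carbon ions gave a mean of 0.09 ± 0.04 (adjusted p = 0.605; 95% interval -0.17 to 0.36). Gamma rays raised it to 0.40 ± 0.16 (adjusted p = 0.0218), a call lost without gamma ray replicate 2 (adjusted p = 0.112) or replicate 3 (adjusted p = 0.109). After fast neutrons TIR1 was at -0.14, -1.04 and -0.42, all below 0 (mean -0.53 ± 0.46, adjusted p = 0.117).

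TIP1 (YBR067C), the family's name-giver and known for its induction by both cold and heat shock, had another order. Thermal neutrons gave 0.02, -0.25 and -0.14, carbon ions 0.92, 0.54 and 0.18, and gamma rays 0.05, 0.67 and 0.57. Every thermal neutron array lies below every array of the other 2. Carbon ions raised TIP1 (0.55 ± 0.37, adjusted p = 0.0337), but not without carbon ion replicate 1 (adjusted p = 0.229) or replicate 2 (adjusted p = 0.121), nor in the high-power scan alone (adjusted p = 0.0817), nor with those arrays fitted alone (adjusted p = 0.0967). Gamma rays came just short (0.43 ± 0.33, adjusted p = 0.0509), and thermal neutrons gave -0.12 ± 0.13 (adjusted p = 0.555). After fast neutrons it rose to 0.85 ± 0.39, from arrays at 0.67, 1.29 and 0.58 (adjusted p = 0.033), above 98.2% of genes tested.

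SED1 (YDR077W), an abundant structural GPI protein that is known to accumulate under stress and in stationary phase, was above 0 on 11 of 12 arrays. It was at 0.76, 0.80 and 0.40 after thermal neutrons, 0.82, 0.49 and 0.54 after carbon ions, -0.47, 0.78 and 0.79 after gamma rays, and 0.93, 1.20 and 0.76 after fast neutrons. The exception is gamma ray replicate 1. Thermal neutrons raised it (0.65 ± 0.22, adjusted p = 0.0304), as did fast neutrons (0.96 ± 0.22, adjusted p = 0.0187), a 1.95-fold rise above 99.1% of genes tested. Carbon ions (0.61 ± 0.18, adjusted p = 0.0611) and gamma rays (0.37 ± 0.73, adjusted p = 0.196) did not pass. The carbon ion value passed under 6 of 15 alternatives. Among these were the low-power scan alone (adjusted p = 0.0258) and the carbon ion arrays fitted alone (adjusted p = 0.0481). The thermal neutron call was lost without thermal neutron replicate 1, 2 or 3 (adjusted p = 0.128, 0.137 and 0.0562).

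CWP1 (YKL096W), a GPI protein known to gather at birth scars, read 0.62, 0.48 and 0.43 after thermal neutrons, 0.73, 0.59 and 0.98 after carbon ions, and -0.24, 0.31 and 0.54 after gamma rays. The high-power scan gave no value for it on carbon ion replicates 1 and 2, so these 2 values rest on the low-power scan. It rose after carbon ions (0.77 ± 0.20, adjusted p = 0.00594) and thermal neutrons (0.51 ± 0.10, adjusted p = 0.0186), but not after gamma rays (0.20 ± 0.40, adjusted p = 0.308). The thermal neutron call was lost without thermal neutron replicate 1, 2 or 3 (adjusted p = 0.101, 0.0688 and 0.0532). Means were then 0.46, 0.53 and 0.55. Quantile normalisation also ended that call, with a mean of 0.47 (adjusted p = 0.0537). Fast neutrons gave 0.29, -0.19 and 0.24 (mean 0.11 ± 0.26, adjusted p = 0.665).

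CWP2 (YKL096W-A), a small and abundant GPI protein that contributes to the wall's barrier at low pH, fell after thermal neutrons. It was at -0.83, -0.83 and -0.45 after thermal neutrons, 0.11, 0.39 and -0.24 after carbon ions, and -0.58, -0.05 and 0.18 after gamma rays. The thermal neutron mean of -0.70 ± 0.22 (adjusted p = 0.00664) held under every alternative. Carbon ions gave 0.08 ± 0.32 (adjusted p = 0.75), gamma rays -0.15 ± 0.39 (adjusted p = 0.494) and fast neutrons -0.18 ± 0.36 from arrays at 0.10, -0.05 and -0.59 (adjusted p = 0.527).

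CCW12 (YLR110C), a very abundant GPI protein needed for normal wall strength, passed after no radiation. Arrays read -0.15, -0.17 and -0.32 after thermal neutrons, 0.06, 0.58 and 0.14 after carbon ions, -0.65, 0.16 and -0.22 after gamma rays, and -0.30, -0.14 and -0.65 after fast neutrons. Thermal and fast neutron arrays are all below 0 and carbon ion arrays all above it. The 95% intervals were -0.56 to 0.13 after thermal neutrons, -0.08 to 0.61 after carbon ions, -0.58 to 0.11 after gamma rays and -0.74 to 0.02 after fast neutrons. Without fast neutron replicate 2 the fast neutron value passed (adjusted p = 0.015).

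The 3 fast neutron calls were tested again with 1 array left out. PIR1, SED1 and TIP1 all lost their call without fast neutron replicate 1 (adjusted p = 0.106, 0.0691 and 0.0826) and without replicate 3 (adjusted p = 0.139, 0.0529 and 0.0698). Without replicate 1 their means were -0.83, 0.98 and 0.94, and without replicate 3 they were -0.61, 1.07 and 0.98, so with 2 arrays left SED1 and TIP1 were no smaller. They also lost it in the high-power scan alone (adjusted p = 0.115, 0.0962 and 0.101), where 0.792% of all genes passed. Each had the same sign on all 3 arrays.

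Single arrays carried several members together. On gamma ray replicate 1, 9 of the 10 members had their lowest value of the group, where 33.6% of all genes did, and their median deviation from the group mean was -0.28. Without that array 6 members rose after gamma rays in place of 3. SED1 was at 0.78 (adjusted p = 0.00417), TIP1 at 0.62 (adjusted p = 0.0224) and CWP1 at 0.42 (adjusted p = 0.0454) beside PIR3, HSP150 and TIR1. The share of all genes called without that array is not given here, so this count is not read as particular to the members. Fast neutron replicate 3 held the lowest value for 7 of 10 members, against 37.2% of all genes. Carbon ion replicate 3 held the lowest value for 6 of 10 and carbon ion replicate 1 the highest for 7 of 10, against 34.5% and 25.8% of all genes. Thermal neutron replicate 2 held the lowest value for 6 of 10, against 28.1% of all genes. What sets these arrays apart was not tested.

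The 2 scans of an array gave close ratios for most members. Of 90 pairings of a member with an array scanned at both laser powers, 87 had both values, with a median absolute difference of 0.11 between scans. The largest was on fast neutron replicate 2, where CWP1 was at 0.29 in the low-power and -0.67 in the high-power scan. CIS3 differed there too, with -0.01 and -0.72, and TIR1 with -0.79 and -1.28. On that array the scans correlated across probes with r = 0.693. Its high-power scan had a median log2 ratio of 0.13 over all probes, the highest of the 21 columns of values. Carbon ion replicate 3 had a similar correlation between scans (r = 0.698). SED1 differed on fast neutron replicate 3, with 1.04 in the low-power and 0.47 in the high-power scan. The 2 scans had opposite signs in 7 of the 87. With the low-power scans alone TIR1 passed after fast neutrons (-0.52, adjusted p = 0.0271).

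**Figure D2:**
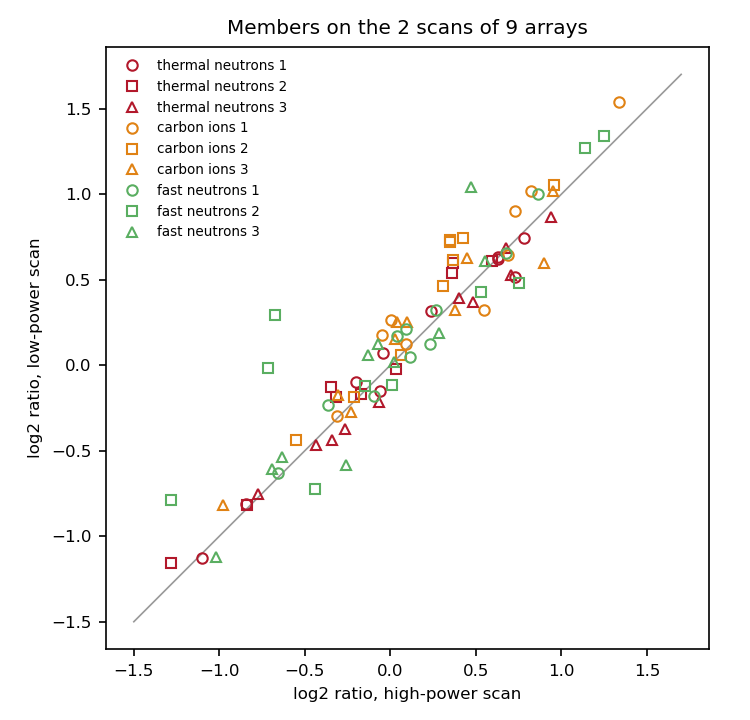
Log2 ratio in the high-power scan (horizontal axis) against the low-power scan (vertical axis) for the members on the 9 arrays scanned at both powers. Colours give the radiation, symbols the replicate, and the line marks equal values. The 2 points farthest from the line are green squares of fast neutron replicate 2, CWP1 at -0.67 and 0.29 and CIS3 at -0.72 and -0.01.

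Thermal neutrons, carbon ions and gamma rays were compared directly for the 10 members, and 6 of 30 differences passed. Thermal neutrons against gamma rays gave 2 calls, both lower (38.2% of all genes were called, 20.4% higher and 17.8% lower). Thermal neutrons against carbon ions gave 1 higher and 1 lower (10.2% called, 5.80% higher and 4.37% lower). Carbon ions against gamma rays gave 2, both lower (20.8% called, 11.4% higher and 9.35% lower). With 10 members, these shares of calls are not read as differing from those of all genes.

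TIR1 had the largest difference. Thermal neutrons stood at -1.03 against 0.40 for gamma rays, a difference of -1.44 (95% interval -1.81 to -1.06, adjusted p = 1.22e-04), and at -1.03 against 0.09 for carbon ions, a difference of -1.13 (-1.51 to -0.75, adjusted p = 0.00295). Both held under every alternative. Carbon ions minus gamma rays was -0.31 (-0.69 to 0.07, adjusted p = 0.23).

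PIR3 was lower after thermal neutrons than after gamma rays, by -1.06 (95% interval -1.49 to -0.63, adjusted p = 0.00177), in every alternative. It was also lower after carbon ions than after gamma rays, by -0.70 (-1.14 to -0.27, adjusted p = 0.0298). That call was lost without gamma ray replicate 1, 2 or 3 (adjusted p = 0.0616, 0.0509 and 0.0881), without carbon ion replicate 2 or 3 (adjusted p = 0.0679 and 0.0866) and with quantile normalisation, where the difference was -0.31 (adjusted p = 0.289). Thermal neutrons minus carbon ions was -0.36 (-0.79 to 0.08, adjusted p = 0.279).

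PIR1 was lower after carbon ions than after gamma rays, by -0.91 (95% interval -1.38 to -0.45, adjusted p = 0.0125), in every alternative. It was higher after thermal neutrons than after carbon ions, by 0.87 (0.40 to 1.33, adjusted p = 0.0263). Leaving out thermal neutron replicate 1 or 3 (adjusted p = 0.0841 and 0.073) or carbon ion replicate 2 or 3 (adjusted p = 0.0597 and 0.0601) ended that call. Thermal neutrons minus gamma rays was -0.05 (-0.51 to 0.41), so a difference of up to that size either way was not resolved.

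For the other 7 members no difference passed. The widest was CWP2, with thermal neutrons minus carbon ions at -0.78 (95% interval -1.30 to -0.27, adjusted p = 0.0574). TIP1 had -0.67 for the same difference (-1.17 to -0.17, adjusted p = 0.0869). Both passed without carbon ion replicate 3 (adjusted p = 0.0322 and 0.0357), and against gamma rays both passed without gamma ray replicate 1 (adjusted p = 0.0247 and 0.0273). HSP150 had -0.43 for carbon ions minus gamma rays (-0.78 to -0.07, adjusted p = 0.0817). SED1 had the widest intervals, from -0.62 to 0.70 for thermal neutrons minus carbon ions, so its radiations could not be ranked.

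**Figure D3:**
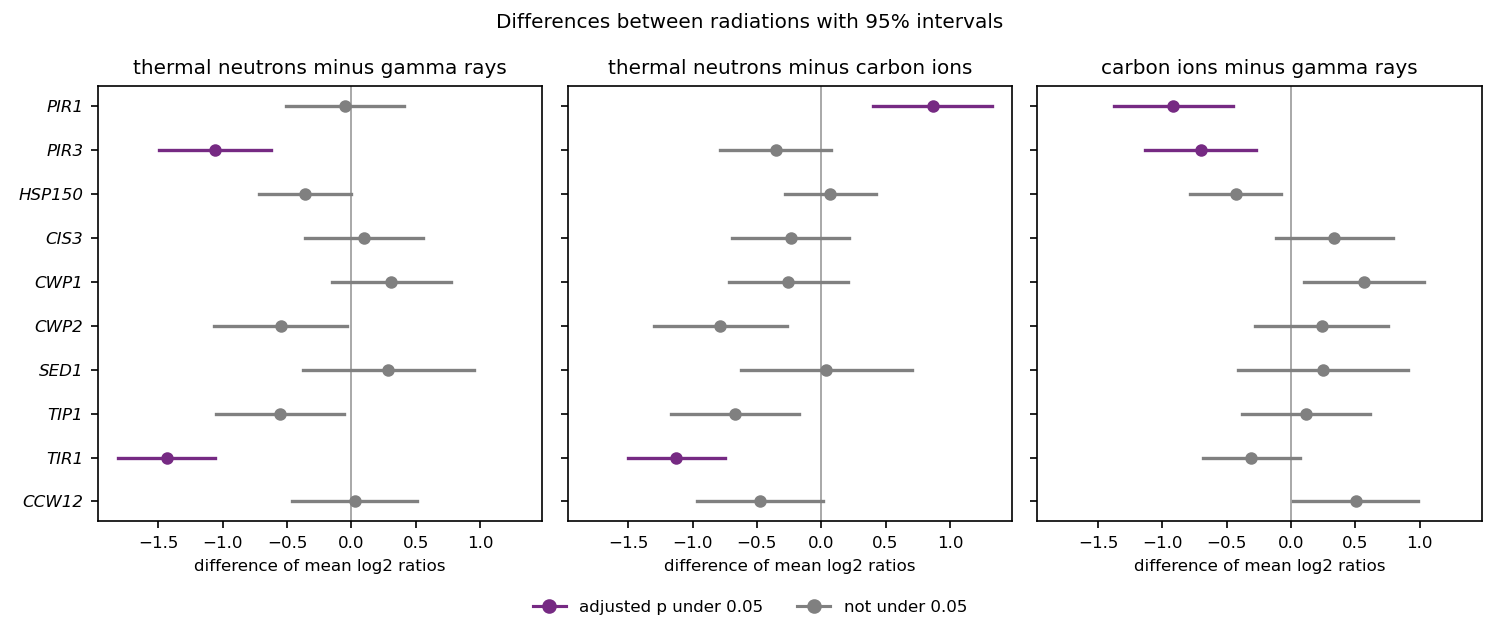
Differences of mean log2 ratio between radiations (horizontal axis) for the 10 members, with points for the difference and lines for 95% intervals. Purple marks an adjusted p under 0.05. TIR1 and PIR3 lie below 0 for thermal neutrons minus gamma rays, and PIR1 lies on opposite sides of 0 for the differences that involve carbon ions.

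In the RefSeq annotation of assembly R64, 6 of the 10 members form 3 pairs with no other protein-coding gene between them. PIR1 and PIR3 lie next to each other on chromosome XI and are transcribed away from each other. HSP150 and CIS3 on chromosome X are transcribed towards each other, and CWP2 and CWP1 on chromosome XI run in the same direction.

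Within each pair the neighbours differed on most arrays. PIR3 was above PIR1 on all 12, by 0.41 ± 0.16 after thermal neutrons, 1.63 ± 0.12 after carbon ions, 1.42 ± 0.23 after gamma rays and 1.04 ± 0.20 after fast neutrons. CIS3 was below HSP150 on all arrays but fast neutron replicate 3, by -0.83 ± 0.21, -0.52 ± 0.26, -1.29 ± 0.22 and -0.29 ± 0.49 in the same order. CWP1 was above CWP2 on all arrays but fast neutron replicate 2, by 1.21 ± 0.30 after thermal neutrons, where the pair moved in opposite directions, and by 0.35 ± 0.01 after gamma rays. These are differences of ratios of 2 probes, not of transcript levels, and were not tested.

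**Figure D4:**
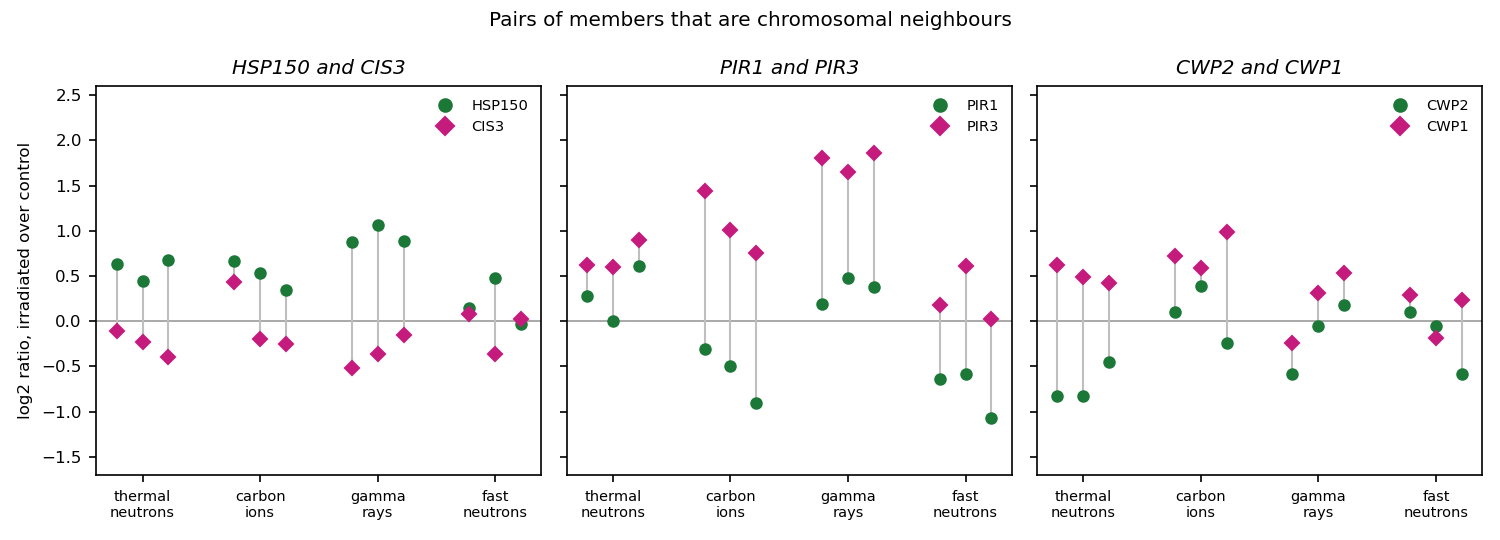
Log2 ratios of irradiated over control (vertical axis) for 3 pairs of neighbouring members, with a grey line joining the 2 genes on each of the 12 arrays. PIR3 lies above PIR1 on every array, and CWP1 and CWP2 lie on opposite sides of 0 on all 3 thermal neutron arrays.

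The members with the widest range of means over thermal neutrons, carbon ions and gamma rays were TIR1 (1.44), PIR3 (1.06) and PIR1 (0.91). For each, the 3 closest of 4693 other genes were found by the mean absolute difference of log2 ratios over 9 arrays. Closest to TIR1 were AUS1, a sterol transporter (0.151), MNN4, a regulator of mannosylphosphate transfer to wall glycoproteins (0.159), and IME4, an RNA methyltransferase of meiosis (0.162). AUS1 averaged -0.86 after thermal neutrons, -0.04 after carbon ions and 0.32 after gamma rays. Closest to PIR3 were YPS5 of the yapsin protease family (0.138), FAT3 (0.205) and XBP1, a stress-induced repressor (0.23). YPS5 averaged 0.59, 1.10 and 1.66 in the same order. Closest to PIR1 were CBK1, a kinase of polarised growth and daughter cell separation (0.17), MSA2, an activator of G1 transcription (0.185), and GYP5 (0.199).

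Other wall mannoproteins also moved in both directions. Of a list of 25 such genes, 19 were on both array types and 17 or 18 could be tested per radiation. After thermal neutrons 6 rose and 8 fell, after carbon ions 7 rose and 3 fell, after gamma rays 3 rose and 3 fell, and after fast neutrons 2 rose and 1 fell. Their medians were -0.19, 0.31, -0.02 and -0.09 in that order. As shares of those tested, 33.3% rose and 44.4% fell after thermal neutrons, against 19.9% and 21.2% of all genes, and 41.2% and 17.6% after carbon ions, against 9.70% and 11.9%. After gamma rays 17.6% went each way, close to the 17.6% and 22.4% of all genes. For fast neutrons 11.1% rose and 5.6% fell, against 5.06% and 5.92%. SPI1 (YER150W), a stress-induced GPI protein related to SED1, rose after thermal neutrons (2.12 ± 0.23, adjusted p = 1.4e-05), carbon ions (1.76 ± 0.57) and fast neutrons (1.05 ± 0.37), and was at 0.19 after gamma rays. FIT2 (YOR382W), a mannoprotein that helps retain iron in the wall, rose after thermal neutrons (2.79 ± 0.47), a 6.92-fold rise, and fell after gamma rays (-0.74 ± 0.26). It also rose after carbon ions (0.79 ± 0.36, adjusted p = 0.0139), and did not pass after fast neutrons (0.67 ± 0.82, adjusted p = 0.153).

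Some relatives of TIR1 also fell after thermal neutrons. TIR2 was at -0.88 ± 0.46 (adjusted p = 0.00322), TIR3 at -0.79 ± 0.29 (adjusted p = 8.23e-04) and DAN1, an anaerobic mannoprotein, at -0.56 ± 0.18 (adjusted p = 0.00339), while TIR4 was at -0.19 and did not pass. DAN1 was as low after carbon ions (-0.57 ± 0.17, adjusted p = 0.00736), where TIR1 was at 0.09. After gamma rays, where TIR1 rose, TIR2, TIR3 and TIR4 were at -0.10, -0.14 and -0.18 and did not pass. PST1 (YDR055W), a known target of the cell wall integrity pathway, rose after thermal neutrons (1.08 ± 0.05), carbon ions (0.64 ± 0.29) and gamma rays (0.46 ± 0.24). YGP1 (YNL160W), a secreted glycoprotein related to SPS100 and induced by nutrient limitation, fell after thermal neutrons (-0.99 ± 0.40) and gamma rays (-0.65 ± 0.08) and rose after carbon ions (0.84 ± 0.21) and fast neutrons (0.63 ± 0.22).

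**Figure D5:**
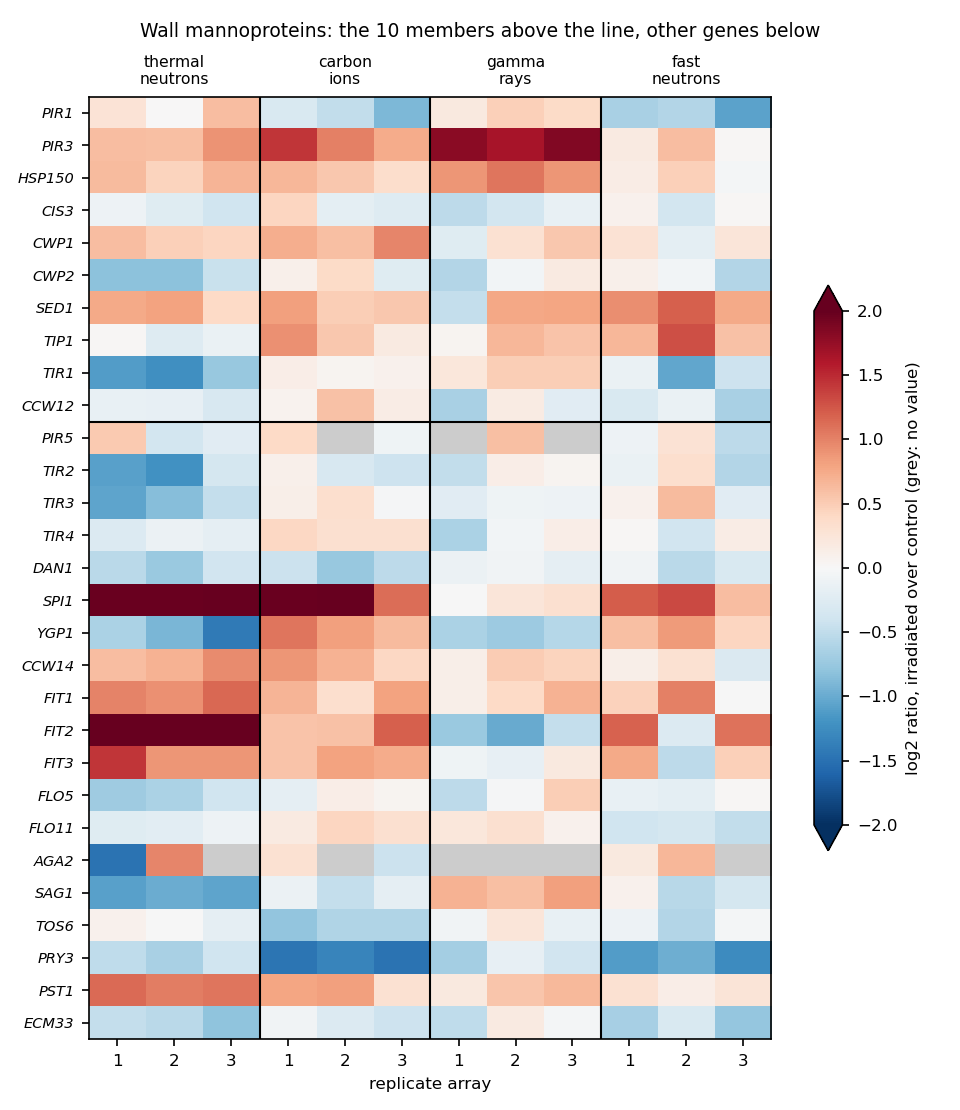
Log2 ratios of irradiated over control on the 12 arrays (columns, grouped by radiation) for the 10 members and 19 other wall mannoprotein genes (rows), with red for higher and blue for lower after irradiation and grey for no value. The colour scale stops at 2 in either direction. SPI1 averages 2.12 after thermal neutrons against 0.19 after gamma rays, and TIR1, TIR2 and TIR3 are blue after thermal neutrons.

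Among 26 genes of cell wall integrity signalling, gamma rays raised 10 of 21 tested and lowered 1. WSC3 and MID2, sensors of wall stress in the plasma membrane, rose to 1.38 ± 0.23 and 1.08 ± 0.17, and SDP1, a phosphatase of the pathway's kinase, to 0.94 ± 0.16. After carbon ions 5 of 22 rose and 3 fell, among them MTL1, a sensor related to MID2 (1.40 ± 0.60), and SDP1 (1.11 ± 0.30). After thermal neutrons 3 of 23 rose and 6 fell: SLT2, the pathway's MAP kinase, rose to 0.86 ± 0.45, while the sensor WSC2 fell to -0.80 ± 0.15. Fast neutrons raised 2 of 24, SDP1 (0.90 ± 0.55) and ROM1, an exchange factor for Rho1 (0.73 ± 0.41), and lowered 0. These are shares of 47.6% higher and 4.8% lower after gamma rays, against 17.6% and 22.4% of all genes. The shares of 13.0% higher and 26.1% lower after thermal neutrons stand against 19.9% and 21.2% of all genes. For carbon ions 22.7% were higher and 13.6% lower, against 9.70% and 11.9%. For fast neutrons 8.3% were higher and 0.0% lower, against 5.06% and 5.92%. The list's medians were -0.03 after thermal neutrons, 0.15 after carbon ions, 0.21 after gamma rays and 0.07 after fast neutrons. WSC3 and MID2 were lower after thermal neutrons than after gamma rays, by -2.13 (adjusted p = 1.47e-04) and -1.60 (adjusted p = 2.4e-04).

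Among genes that modify or anchor the mannoproteins, the mannosyltransferases that passed were mostly lower. Of 33 mannosyltransferase and mannose supply genes tested, thermal neutrons lowered 18 and raised 1, carbon ions lowered 15 and raised 1, gamma rays lowered 11 and raised 0, and fast neutrons lowered 11 and raised 0, with medians of -0.37, -0.37, -0.26 and -0.32. The lowered shares were 54.5%, 45.5%, 33.3% and 33.3% in that order, against 21.2%, 11.9%, 22.4% and 5.92% of all genes. The raised shares were 3.0%, 3.0%, 0.0% and 0.0%, against 19.9%, 9.70%, 17.6% and 5.06%. VRG4, the Golgi importer of GDP-mannose, was at -1.28 ± 0.37 after thermal neutrons, -0.98 ± 0.06 after gamma rays and -0.97 ± 0.14 after fast neutrons. Carbon ions lowered VRG4 too (-0.74 ± 0.19, adjusted p = 0.00571). MNN1, which adds terminal mannose, was at -0.99 ± 0.21 after carbon ions and -1.22 ± 0.15 after gamma rays. After thermal neutrons MNN1 was at -0.09 (adjusted p = 0.585), higher than after gamma rays by 1.14 (adjusted p = 4.75e-04). Of the GPI anchor genes thermal neutrons lowered 16 of 29 and raised 1, carbon ions lowered 5 and raised 2 of 29, gamma rays lowered 6 and raised 3 of 29, and fast neutrons lowered 4 of 27 and raised 0, with medians of -0.41, -0.07, -0.07 and -0.26. The lowered share was 55.2% after thermal neutrons, against 21.2% of all genes. After carbon ions it was 17.2% against 11.9%, and after gamma rays 20.7% against 22.4%, both near that of all genes. The fast neutron share was 14.8% against 5.92%. The raised shares were 3.4%, 6.9%, 10.3% and 0.0% after thermal neutrons, carbon ions, gamma rays and fast neutrons. Those of all genes were 19.9%, 9.70%, 17.6% and 5.06%. GWT1, an acyltransferase of GPI synthesis, was at -0.98 ± 0.22 after thermal neutrons and -1.04 ± 0.21 after fast neutrons. DCW1, thought to help join GPI proteins to glucan, rose instead, to 1.03 ± 0.28 after thermal neutrons, 0.83 ± 0.03 after carbon ions and 1.15 ± 0.31 after gamma rays.

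Wall remodelling enzymes were counted next. Thermal neutrons lowered 13 of 22 and raised 1, carbon ions lowered 8 of 20 and raised 3, gamma rays lowered 6 of 21 and raised 3, and fast neutrons lowered 9 of 20 and raised 0, with medians of -0.60, -0.33, -0.06 and -0.38. The lowered shares were 59.1% after thermal neutrons, 40.0% after carbon ions and 45.0% after fast neutrons, against 21.2%, 11.9% and 5.92% of all genes. The raised shares were 4.5%, 15.0% and 0.0% in that order, against 19.9%, 9.70% and 5.06%. After gamma rays 28.6% fell and 14.3% rose, near the 22.4% and 17.6% of all genes. SUN4, a glucan-binding protein of septum formation, was at -1.23 ± 0.04 after thermal neutrons, -1.11 ± 0.12 after carbon ions and -1.13 ± 0.18 after fast neutrons. It also fell after gamma rays (-0.76 ± 0.28, adjusted p = 9.18e-04). EXG1, an exoglucanase, was at -0.98 ± 0.45 after carbon ions, -1.29 ± 0.11 after gamma rays and -1.33 ± 0.23 after fast neutrons. Thermal neutrons lowered EXG1 as well (-0.92 ± 0.11, adjusted p = 8.28e-04). CRH1, which crosslinks chitin to glucan, rose after gamma rays (0.79 ± 0.16). Of 20 glucan and chitin synthesis genes thermal neutrons raised 5 and lowered 7, gamma rays raised 7 and lowered 2, carbon ions raised 1 and lowered 1, and fast neutrons changed 0 in limma, with 5 at an unadjusted p under 0.05. Medians of this list lay between 0.01 and 0.08. After thermal neutrons 25.0% rose and 35.0% fell, against 19.9% and 21.2% of all genes, and after gamma rays 35.0% rose and 10.0% fell, against 17.6% and 22.4%. For carbon ions 5.0% went each way, against 9.70% and 11.9%, and for fast neutrons 0.0%, against 5.06% and 5.92%.

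Regulators known for acting on wall genes were counted in the same way, without a test between radiations for the list. Of these regulators 2 are also in the signalling list, which shares 1 gene with glucan and chitin synthesis, so the counts overlap. Gamma rays raised 7 of 14 and lowered 0, thermal neutrons raised 2 of 16 and lowered 8, and carbon ions raised 2 of 13 and lowered 5. The shares were 12.5% higher and 50.0% lower after thermal neutrons, against 19.9% and 21.2% of all genes. For gamma rays they were 50.0% higher and 0.0% lower, against 17.6% and 22.4%. For carbon ions they were 15.4% higher and 38.5% lower, against 9.70% and 11.9%. UPC2, known to activate the anaerobic TIR and DAN genes, was at -0.95 ± 0.11 after thermal neutrons and lower there than after gamma rays by -1.53 (adjusted p = 3.36e-04). SUT1, a sterol uptake regulator, rose after gamma rays (1.25 ± 0.44) and carbon ions (0.81 ± 0.31) and was lower after thermal neutrons than after gamma rays by -1.79 (adjusted p = 3.9e-04). SKN7, a regulator of wall and oxidative stress genes, fell after thermal neutrons (-1.23 ± 0.12) and carbon ions (-0.60 ± 0.30). ROX1, a repressor of anaerobic genes, rose after gamma rays (0.96 ± 0.17). After fast neutrons 0 of 15 passed in limma, with 6 at an unadjusted p under 0.05. Of all genes, 5.06% were called higher and 5.92% lower after fast neutrons. Medians were -0.40 after thermal neutrons, -0.12 after carbon ions, 0.38 after gamma rays and -0.21 after fast neutrons.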

How the data were processed

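The values deposited by the authors are log2 ratios, after LOWESS normalisation of spots with flag value 0, per the labels. The direction of these ratios, irradiated (Cy5) over control (Cy3), was inferred from the values and labels. Every rise and fall reported here depends on that direction. The labels also mention a merge of both scans in GeneSpring; the values used here are those of the single scans. The log base is not stated and was read from the values, whose floor is log2 of a ratio of 0.01. The high and low power scans of an array (21 columns, 12 arrays) were averaged per probe, and the probes of a gene were averaged. Between 4496 and 6133 of 6912 probes per column held a value, and the number of arrays limits the precision. Symbols came from GEO's platform annotation: 5446 and 5513 probes had 1 symbol, 1466 and 1399 none. Loci come from RefSeq R64.

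Each radiation was tested against 0, and thermal neutrons, carbon ions and gamma rays against each other, with limma 3.58.1 in R 4.3.3 (lmFit and eBayes). Tests were two-sided and covered genes measured on all 3 arrays of each group compared. The 9 arrays of the shared table were fitted together and the 3 fast neutron arrays alone, since their table was normalised separately. The fit was tested on simulated data. P-values measure only the spread between arrays, which may be partly technical. The members, gene lists and tests were chosen with earlier results of these data known. Named genes were all members, any other wall mannoprotein, and for each further list and comparison up to 3 genes with the smallest adjusted p. Alternatives changed the scan, centring, spread, quantile normalisation, samples in the fit, missing value filter, weights, robust eBayes, replicates, replicate block and probe summary.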

Additional observations from a re-analysis of the deposited data

Results flagged for a closer look

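In 6 cases a member's response differed between radiations by a direct limma contrast. TIR1 was lower after thermal neutrons than after gamma rays (-1.44) and than after carbon ions (-1.13). PIR3 was lower after thermal neutrons (-1.06) and after carbon ions (-0.70) than after gamma rays. PIR1 was lower after carbon ions than after gamma rays (-0.91) and higher after thermal neutrons than after carbon ions (0.87). Dose and time in saline differ with the radiation, and their part in these differences was not tested.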

How the results depend on the processing

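Of 70 results for single members, 23 passed; 12 of these passed under every alternative that could be run, 14 others passed only under some alternative, and none of these 70 changed sign while called on either side. The number of members called was within 1.5 times the reported one except as follows. Gamma rays gave 6 in place of 3 with array weights, and 2 to 6 with 1 replicate left out. Carbon ions gave 3 in place of 5 in the high-power scan alone and when fitted alone, and 2 to 4 with 1 replicate left out. In the high-power scan TIP1 lost its call, while CWP1, without a value on carbon ion replicates 1 and 2, could not be tested. Thermal neutrons gave 4 in place of 6 with 1 replicate left out. Fast neutrons gave 0 in place of 3 in the high-power scan alone, with 3 at an unadjusted p under 0.05 in limma, and 0 to 4 with 1 replicate left out; without replicate 1 or 3 it gave 0, with 4 and 3 at an unadjusted p under 0.05. Carbon ions against gamma rays gave 1 in place of 2 with the low-power scan, fitted alone or with array weights, and 1 to 2 with 1 replicate left out. Thermal neutrons against gamma rays gave 5 in place of 2 with array weights and 2 to 4 with 1 replicate left out. Thermal neutrons against carbon ions gave 4 with the low-power scan and 5 with array weights in place of 2, and 1 to 3 with 1 replicate left out. The cause was not tested. Apart from the fast neutron high-power scan, shares of all genes called under these alternatives are not given here. The changes in count are therefore not read as particular to the members. Same-numbered arrays of different radiations showed no clear shared deviation. Their deviations correlated with r from -0.26 to 0.13 in 9 pairs. A best match to its own number in both other radiations was found for 0 of 9 arrays. Such values cannot show whether arrays were paired by design. With a replicate block thermal neutrons against carbon ions gave 1 call in place of 2 (PIR1 was lost, adjusted p = 0.0562), carbon ions against control 4 in place of 5 (TIP1 was lost, adjusted p = 0.0581), and the other 4 counts of the shared table stayed at their values; fast neutrons, fitted alone, allow no block.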
